A study of Glycine max with 4 samples.

Results

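Chromosomes 11 and 16 are the shortest chromosomes of the soybean (Glycine max) as measured to their last peaks, and they stood near opposite ends of the range of peak density. They were chosen from the measured values, chromosome 11 for the highest density of accessible sites and chromosome 16 for the smallest number of them. All peaks placed on either chromosome were taken, 843 of the 11436 peaks in the list (7.37%). Chromosome 11 carried 478 and chromosome 16 carried 365, and the other 18 chromosomes carried 9876. The peaks came from ATAC-seq on embryos of the cultivar Williams 82 at early maturation, dissected by hand from seeds of 6 to 7 mm, with 50000 nuclei in a transposition. The labels gave 2 biological replicates, each with a paired-end run and a single-end run, and the list of peaks rested on the paired-end runs.

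In ATAC-seq the Tn5 transposase inserts sequencing adapters where DNA is free of nucleosomes, so a peak marks a stretch of accessible chromatin such as a promoter or an enhancer. Soybean chromosomes typically have gene-rich arms and a long middle around the centromere that is rich in repeats, poor in genes and seldom recombines. At early maturation cell division in the embryo gives way to the build-up of storage protein and oil in the cotyledons.

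The list held the positions of the peaks and no heights, read counts or sample names, so depth was unknown, peaks carried no replicate error, and replicates could not be compared. All measures below derive from the list by which the chromosomes were chosen, and they are therefore given as descriptions with no test. Means ± SD over the other 18 chromosomes show how chromosomes vary within this single list and are not replicate error. Positions count from 1. No source used here names the genome build, and no gene was assigned to a peak. The length of a chromosome was taken to the end of its last peak and is a lower bound. Intervals on shares are 95% exact binomial intervals and cover counting error only.

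Chromosome 11 spanned 34.6 Mb and chromosome 16 spanned 37.8 Mb, against 40.1 to 58.0 Mb for the other 18. The peaks of chromosome 11 began at 108433 to 108831 and ended at 34607363 to 34607668. Those of chromosome 16 ran from 13558 to 13863 at the start and to 37822386 to 37822606 at the end. Chromosome 11 had 13.8 peaks per Mb and chromosome 16 had 9.65, against 11.3 ± 1.02 over the other 18 (SD, n = 18 chromosomes). The next highest density was the 13.2 peaks per Mb of chromosome 17. The next smallest number was the 457 peaks of chromosome 20, whose longer span gave 9.57 peaks per Mb, so chromosome 16 was the second lowest in density. Chromosome 11 thus held 4.46% of chromosomal peaks on 3.65% of the summed span, and chromosome 16 held 3.41% on 3.99%. Peaks covered 233 kb or 0.672% of chromosome 11 and 196 kb or 0.518% of chromosome 16, against 0.601% ± 0.0726 of the other 18 (SD, n = 18).

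A short length did not go with one level of density. The 3 next shortest chromosomes, 12, 17 and 5, spanned 40.1, 41.6 and 42.1 Mb and had 12.2, 13.2 and 12.6 peaks per Mb. All 3 lay above the mean of the other 18, as chromosome 11 did, whereas chromosome 16 lay below it.

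In parts set as percentages of the span, chromosome 11 exceeded the others' mean by about the same factor in arms and middle. The deficit of chromosome 16 was mostly in its middle. Each chromosome was divided into an inner part, the middle 50% of its span, and outer parts of 25% at each end. In the outer parts chromosome 11 had 18.6 peaks per Mb, the highest of the 20 chromosomes, and chromosome 16 had 14.4, against 15.2 ± 1.89 over the other 18 (SD, n = 18). In the inner part chromosome 11 had 9.02 peaks per Mb, the fourth highest, and chromosome 16 had 4.86, against 7.46 ± 1.69. Only chromosome 4, with 4.75, had an emptier inner part than chromosome 16. Because the outer and inner parts are equal in length, the difference of chromosome 11 from the mean of the others, 2.47 peaks per Mb, divides into 1.69 from the outer parts (68.5%) and 0.779 from the inner part. That split is close to the share of peaks that the other 18 held in their outer parts (67.2%), and chromosome 11 had 1.22 times their mean density in the outer parts and 1.21 times in the inner part. For chromosome 16 the difference of -1.69 peaks per Mb divides into -0.394 from the outer parts and -1.30 from the inner part (76.7%), at 0.948 times the mean of the others in the outer parts and 0.652 times in the inner part.

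**Figure D1:**
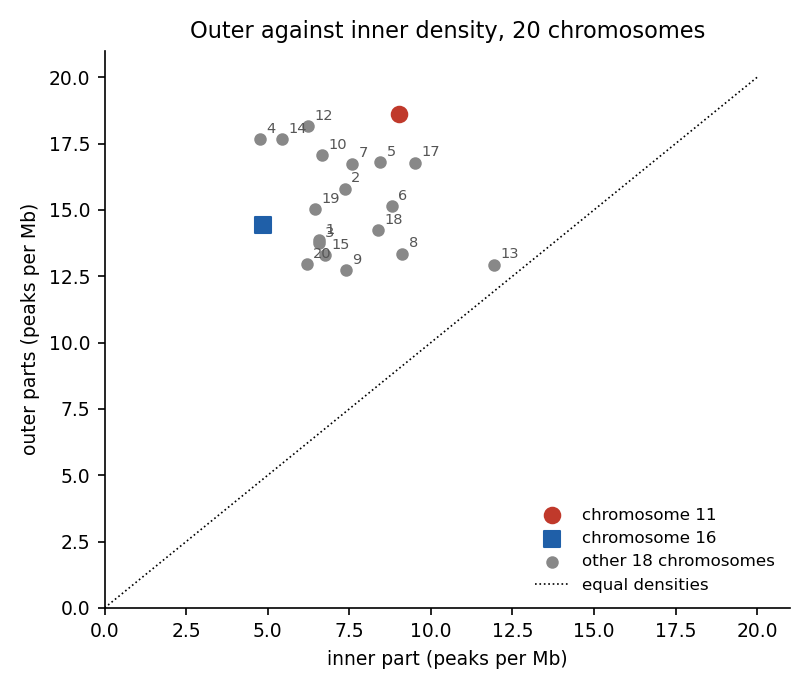
Peak density in the outer parts (25% of the span at each end, y axis, peaks per Mb) against the inner part (x axis, peaks per Mb), with 1 point per chromosome and the other 18 labelled by number. Chromosome 11 is the uppermost point, at 18.6 and 9.02 peaks per Mb, while chromosome 16 lies at the left edge, at 14.4 and 4.86, beside chromosome 4 in its inner density.

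The share of peaks in the outer parts was 67.4% on chromosome 11 (322 of 478, interval 63.0 to 71.6), against 67.2% ± 6.23 over the other 18. On chromosome 16 it was 74.8% (273 of 365, interval 70.0 to 79.2), the third highest of 20. The outer to inner ratio of density was 2.06 on chromosome 11 and 2.97 on chromosome 16, against 2.16 ± 0.635. Compared directly, chromosome 11 was 1.29 times as dense as chromosome 16 in the outer parts and 1.85 times as dense in the inner part, although the differences were nearly the same in absolute terms, 4.17 and 4.15 peaks per Mb.

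On neither chromosome was an arm much fuller than the opposite one. Chromosome 11 had 168 peaks in the first 25% of its span and 154 in the last 25%, at 19.4 and 17.8 peaks per Mb. Chromosome 16 had 142 and 131, at 15.0 and 13.9 peaks per Mb. The start minus end differences of 1.62 and 1.16 peaks per Mb were small beside the range of the other 18, which ran from -13.99 on chromosome 13 to 8.79 on chromosome 6. Such evenness was not particular to these chromosomes. Chromosomes 5 and 12 were more even than both and chromosome 18 than chromosome 11, while the rest were less even. In ends of 5 Mb, chromosome 11 had 105 peaks at the start and 116 at the end, and chromosome 16 had 99 and 81.

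At a finer scale the profiles were uneven. In 20 equal bins, chromosome 11 was above the mean of the other 18 in 14 bins and chromosome 16 in 6. Chromosome 11 was above the range of the other 18 in 2 bins and below it in 1, and chromosome 16 in 0 and 1. Among 20 bins, any chromosome can leave the range of 18 others in some. How often each of the other 18 did so was not counted, so the single bins named below are descriptions only. The last 5% of chromosome 11 held 56 peaks, or 32.4 per Mb, beyond the 10.01 to 26.2 per Mb of the other 18 at that place. Its bin centred at 12.5% of the span, with 25.4 peaks per Mb, was also above all others. As a share of the span, high density reached far inward at the start. The bin centred at 32.5% still had 17.3 peaks per Mb, against 8.99 ± 5.86 in the other 18, and the next bin had 7.51. By fixed length, the first 10 Mb of chromosome 11 held 190 peaks, the fifth highest of 20. Its last 5 Mb held 116, the second highest, and its last 10 Mb held 174, rank 11 of 20, so its end did not stand above all others by fixed length. The emptiest bin of chromosome 11, centred at 67.5%, held 2 peaks, or 1.16 per Mb, the lowest density of the 20 chromosomes at that place. A second trough lay inside the end arm, at 82.5% of the span, with 6.93 peaks per Mb against 14.4 ± 5.81.

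Along the start arm of chromosome 16 the first bin had 22.2 peaks per Mb, the third highest of 20. The next 3 bins had 20.1, 14.3 and 13.2 peaks per Mb, against means of 16.8, 15.1 and 12.9 in the other 18. The bin centred at 22.5% had 5.29, against 10.2 ± 5.96. The bins centred at 32.5%, 37.5% and 42.5% held 5, 6 and 4 peaks, and the last of these, at 2.12 per Mb, was below all other chromosomes at that place. Toward the end the density reached 21.7 per Mb in the bin centred at 87.5%, the second highest of 20. It then stood at 11.1 and 14.8 per Mb in the last 2 bins, where the other 18 averaged 18.4 ± 5.02 and 18.7 ± 4.23. The tips of chromosome 16 therefore differed in rank, the third highest of 20 at the start and the fifth lowest at the end.

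**Figure D2:**
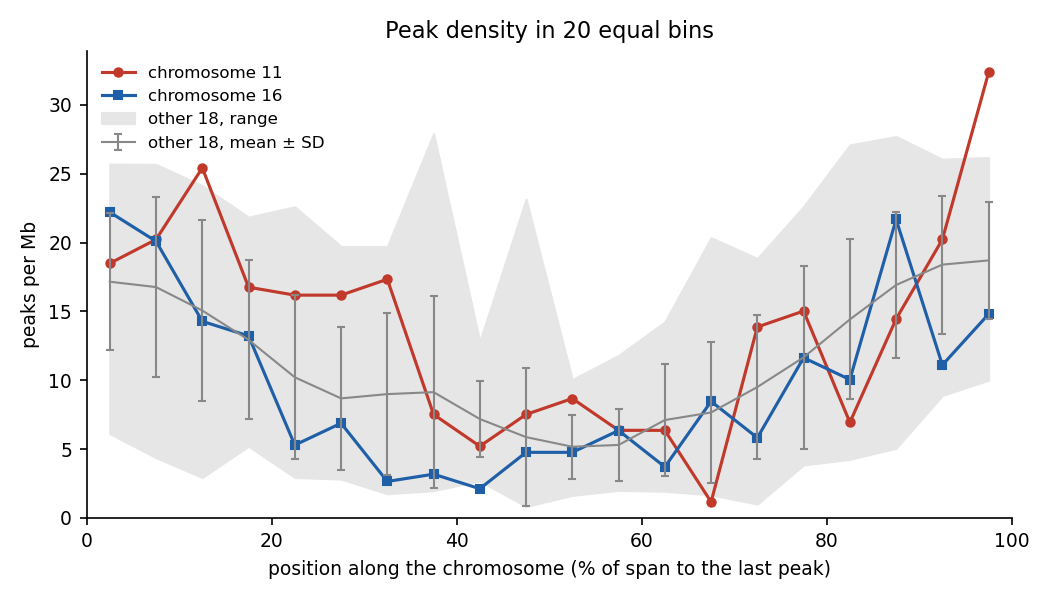
Peak density (y axis, peaks per Mb) in 20 equal bins along the span (x axis, percent) for chromosomes 11 and 16, with the mean ± SD of the other 18 chromosomes as bars and their range shaded. Chromosome 11 leaves the shaded range upward at 12.5% and 97.5% and downward at 67.5%, and chromosome 16 leaves it downward at 42.5%. Among 20 bins any chromosome can leave the range of the others in some, and this was not counted for the other 18.

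Parts defined as a percentage of the span are shorter on short chromosomes, so ends of a fixed length were also measured. Within 5 Mb of either end chromosome 11 had 22.1 peaks per Mb (105 peaks at the start and 116 at the end), second to chromosome 14 with 22.3, and chromosome 16 had 18 (99 and 81 peaks), against 17.6 ± 3.53 in the other 18. Between these ends chromosome 11 had 10.4 peaks per Mb and chromosome 16 had 6.65, against 9.70 ± 1.11 with a range of 8.08 to 12.9. Chromosome 16 was thus near the mean at its ends and the lowest of 20 between them, and its ratio of 2.71 was the highest of 20. With ends of 10 Mb the middle of chromosome 16 was again the lowest of 20, at 4.54 peaks per Mb against 7.93 ± 1.60. Its ends then had 14.2 peaks per Mb, the fifth lowest, against 16.2 ± 2.27, and its ratio of 3.12 was the third highest. There chromosome 11 had 7.80 in the middle, the tenth highest and just below the mean, and 18.2 at the ends, the third highest. The similar factors for its arms and middle given above therefore did not carry over to ends of a fixed length.

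Ends of 10 Mb make up 57.8% of the span of chromosome 11 and 52.9% of that of chromosome 16, against a mean of 41.5% for the other 18. A chromosome as long as chromosome 11, with the mean end and middle densities of the other 18, would have 12.7 peaks per Mb, and its observed density was 1.12 above that. The same calculation gave 12.3 peaks per Mb for the length of chromosome 16, and its observed density was lower by 2.63 (difference -2.63). With ends of 5 Mb the values for these lengths were 12.0 and 11.8 peaks per Mb, with differences of 1.83 for chromosome 11 and -2.13 for chromosome 16.

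The sparsest stretch of 10 Mb on chromosome 11, from 14.2 to 24.2 Mb, held 58 peaks, the most of any chromosome's sparsest stretch. On chromosome 16 the stretch from 10.6 to 20.6 Mb held 33, against 39.6 ± 9.26 over the other 18. Chromosome 11's rank rested on the length of the window. With 5 Mb its sparsest stretch, from 19.3 to 24.3 Mb, held 18 peaks, and 3 other chromosomes had more in theirs. Chromosome 16 had 12 peaks from 12.3 to 17.3 Mb, against 13.9 ± 4.47. The fullest 10 Mb of chromosome 11, from 0.9 to 10.9 Mb, held 202 peaks. The fullest 10 Mb of chromosome 16 was its first, with 147 peaks, fewer than the fullest stretch of any other chromosome (161 to 233).

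In windows of 1 Mb, chromosome 11 had a median of 12.5 peaks and chromosome 16 a median of 8, against 9.86 ± 1.85. The fullest windows of chromosome 11 held 34 peaks from 33 to 34 Mb, 29 from 3 to 4 Mb and 26 from 1 to 2 Mb. On chromosome 16 the windows from 1 to 2 Mb and from 33 to 34 Mb held 30 each, and the first 1 Mb held 20. No full window of either chromosome was empty. The neighbouring windows from 22 to 24 Mb on chromosome 11 held 1 peak each, as did the windows from 12 to 13 Mb and from 16 to 17 Mb on chromosome 16.

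Stretches of over 500 kb without a peak were fewer on chromosome 11 than on chromosome 16. There were 6 on chromosome 11 and 14 on chromosome 16, although chromosome 16 had fewer gaps in all, and the other 18 had 13.7 ± 4.06. They took up 16.3% of the span of chromosome 11 and 27.9% of that of chromosome 16, the third highest share of 20, against 21.8% ± 6.48. Of these stretches, 4 of 6 on chromosome 11 and 12 of 14 on chromosome 16 lay in the inner part. Whether reads could be placed uniquely there was not tested.

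Stretches over 1 Mb numbered 3 on chromosome 11 and 1 on chromosome 16. On chromosome 11 the longest ran from 23025616 to 24345604 (1.32 Mb), followed by 19216807 to 20343613 (1.13 Mb) and 21871767 to 22964506 (1.09 Mb). These 3 lay within about 5 Mb of each other, around the emptiest bin. The longest of chromosome 16 ran from 8731197 to 9778047 (1.05 Mb), centred at 24.5% of the span. The next were 16585518 to 17583733 (0.998 Mb), 19850167 to 20761427 (0.911 Mb) and 13051280 to 13951322 (0.900 Mb).

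Some isolated peaks stood between such stretches. On chromosome 16 a peak of 473 bp from 16585045 to 16585517 was the only site in 1.81 Mb, from 15769378 to 17583733, and lay 816 kb from its nearer neighbour. The next were a peak of 305 bp from 11821484 to 11821788 and a peak of 623 bp from 12246071 to 12246693, which were nearest to each other at 424 kb. On chromosome 11 the most isolated peak, of 295 bp, ran from 29196470 to 29196764 and lay 526 kb from its nearer neighbour. Unlike the others named, it was in the end arm, at 84.4% of the span, within the second trough of the profile. A peak of 870 bp from 21870897 to 21871766 followed, at 495 kb, and then a peak from 13337467 to 13337774, at 355 kb. In all, 34 peaks on chromosome 11 (7.11%, interval 4.98 to 9.80) and 45 on chromosome 16 (12.3%, interval 9.14 to 16.1) had no other peak within 100 kb, against 8.86% ± 2.16 in the other 18.

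The shorter gaps were close in length on both chromosomes. At the upper quartile and the 90th percentile gaps were wider on chromosome 16, although the longest gap was on chromosome 11. The lower quartile of gaps, edge to edge, was 10.8 kb on chromosome 11 and 10.99 kb on chromosome 16, and the median was 35.9 and 37.7 kb. Over the other 18 these were 9.86 ± 1.88 and 38.5 ± 4.06 kb. The medians lay further apart when peaks within 1 kb were merged, at 38.1 and 44.7 kb, and without peaks under the commonest width, at 38.8 and 46.6 kb, where chromosome 16 ranked 7 of 20 in place of 12. The upper quartile was 81.7 kb on chromosome 11, the third lowest of 20, and 122 kb on chromosome 16, the third highest, against 101 ± 14.2 kb. The 90th percentile was 156 kb on chromosome 11, the lowest of 20, and 262 kb on chromosome 16, against 221 ± 30.9 kb with a range of 172 to 290 kb. Divided by place, the median gap in the outer parts was 29.2 kb on chromosome 11 and 31.2 kb on chromosome 16, both below the mean of 34.8 ± 4.07 kb. In the inner part it was 54.3 kb on chromosome 11 and 108 kb on chromosome 16, the third widest of 20, against 58.1 ± 28.4 kb. By the median, gaps in the arms of chromosomes 16 and 11 were therefore close, although their outer densities differed (14.4 and 18.6 peaks per Mb). Outer medians were not measured with close peaks merged. In the middle, the median gap of chromosome 16 lay between those of chromosomes 14 (100 kb) and 1 (112 kb). Chromosome 4 had the widest median (119 kb).

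**Figure D3:**
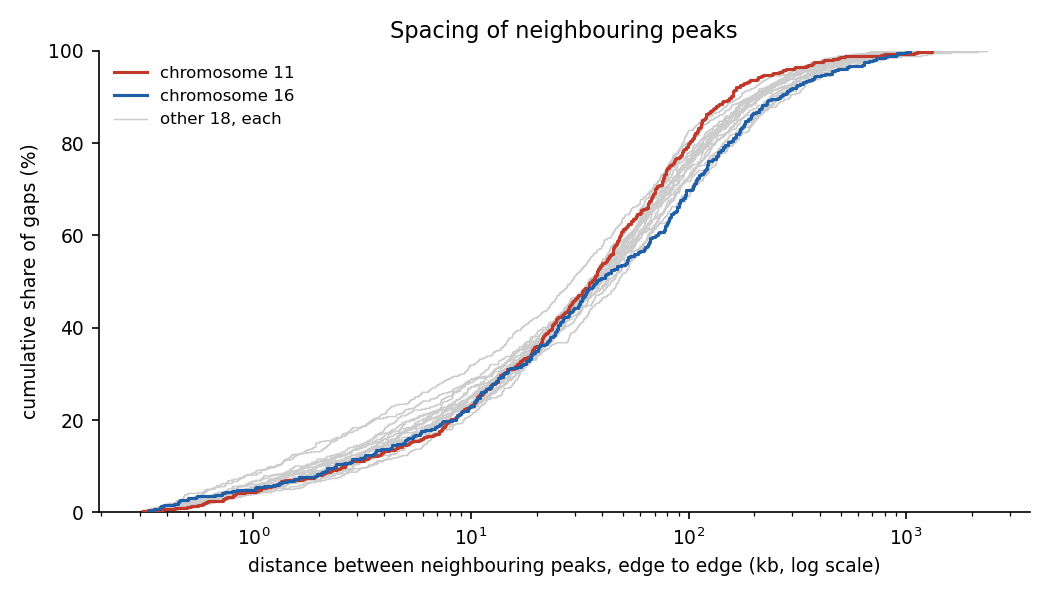
Cumulative share of gaps between neighbouring peaks (y axis, percent) up to a given length (x axis, kb, log scale), for chromosomes 11 and 16 and for each of the other 18 in grey. The curves of chromosomes 11 and 16 run together up to their medians of 35.9 and 37.7 kb and then part, with 90% of gaps reached at 156 kb on chromosome 11 and at 262 kb on chromosome 16.

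Neither chromosome had many tight groups of peaks. Midpoints within 5 kb of each other were found for 67 of 477 neighbouring pairs on chromosome 11 (14.05%, interval 11.1 to 17.5) and for 53 of 364 on chromosome 16 (14.6%, interval 11.1 to 18.6), against 16.3% ± 2.66 in the other 18. In the outer parts the shares were 14.6% and 15.0%, against 14.7% ± 2.58. In the inner part they were 12.8% and 13.2%, ranks 2 and 3 from the lowest of 20, against 20.004% ± 6.73. When gaps of up to 10 kb were joined, 59.0% of peaks on chromosome 11 and 59.5% on chromosome 16 stood alone, against 57.7% ± 3.33. Chains of 4 or more peaks numbered 3 on each, the fewest of the 20 chromosomes, against 8.94 ± 2.82. They held 3.35% of the peaks of chromosome 11 and 3.84% of those of chromosome 16, the lowest and second lowest shares, against 8.67% ± 3.87 with a range of 3.93% to 18.8%.

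The largest chain on chromosome 11 had 8 peaks of 157 to 817 bp from 33306440 to 33328894, at 96.3% of the span, and they covered 18.3% of 22.5 kb. The others had 4 peaks each, from 21005802 to 21017538 and from 24773763 to 24781275. The first of these lay between the peak-free stretches of 1.13 and 1.09 Mb. On chromosome 16 the largest chain had 6 peaks from 36133015 to 36155024, at 95.6% of the span, which covered 13.0% of 22.0 kb. Chains of 4 followed from 33559898 to 33570593 and from 33595073 to 33600222, both in the window of 30 peaks, and the second of these was covered to 41.0%.

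The closest pair on chromosome 11 had 311 bp between its peaks, from 33893371 to 33894145. The next, from 12376233 to 12378620, joined peaks of 1169 and 893 bp across 326 bp, and another, from 24618901 to 24620209, had a gap of 382 bp. On chromosome 16 the closest pairs had gaps of 327 bp (1991565 to 1992764), 338 bp (30206151 to 30207489) and 350 bp (35431933 to 35435461). The last of these joined peaks of 1656 and 1523 bp. The smallest gap on each of the other 18 lay between 304 and 360 bp.

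Widths differed more in the upper range than in the middle. The median was 446 bp on chromosome 11 (upper quartile 577.5) and 468 bp on chromosome 16 (upper quartile 625), against 449 ± 15.4 bp for the medians of the other 18. Chromosome 11 was short of wide peaks. It had 13 of at least 1 kb (2.72%, interval 1.46 to 4.61), the lowest number and share of the 20 chromosomes, and none of at least 2 kb (0 of 478, interval up to 0.769%; the limit of 3 counts for a count of 0 is 0.628%). Chromosome 14 also had none of at least 2 kb. The next lowest shares of at least 1 kb were close, at 3.01% on chromosome 14 (17 peaks) and 3.02% on chromosome 3 (14 peaks). Chromosome 16 had 16 of at least 1 kb (4.38%, interval 2.53 to 7.02) and 4 of at least 2 kb, against 5.20% ± 1.51 of at least 1 kb in the other 18.

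Wide peaks were scarcest in the inner part of chromosome 11, where 2 of the 13 lay among 156 peaks of any width. Chromosome 16 had 5 of its 16 there, among 92 peaks. The other 18 chromosomes had 5 to 37 there, among 124 to 273 peaks. The outer parts held 11 on each, among 322 and 273 peaks, against means of 15.4 ± 5.20 among 368 ± 47.9. These are counts and not shares, and chromosome 16 had the fewest peaks in both parts. The median width in the inner part was 431.5 bp on chromosome 11, the second lowest of 20, and 496.5 bp on chromosome 16, against 466 ± 21.6 bp. In the outer parts it was 447 bp and 458 bp, against 440 ± 20.6 bp. The inner median of chromosome 11 was thus below its outer one, with an inner minus outer difference of -15.5 bp. No interval was computed for this difference, and the inner median rests on 156 peaks. Chromosome 16 went the other way, at 38.5 bp, as 15 of the other 18 did.

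The widest peak of chromosome 11 had 1929 bp, from 3910005 to 3911933 in the start arm. It was followed by peaks of 1571 bp (30849764 to 30851334), 1381 bp (26687649 to 26689029), 1347 bp (31081090 to 31082436) and 1286 bp (27513049 to 27514334), all in the end arm. The widest of chromosome 16 had 4430 bp, from 35584581 to 35589010, and the next had 3830 bp, from 35503197 to 35507026. These lay in the end arm with the close pair of 1656 and 1523 bp, so that the 157 kb from 35431933 to 35589010 held 4 peaks, all of at least 1 kb. No stretch of up to 200 kb on chromosome 11 held more than 2 such peaks. The other peaks among its 5 widest were separate, with 2507 bp in the middle (21250674 to 21253180), and with 2223 bp (6445619 to 6447841) and 1712 bp (1222445 to 1224156) in the start arm.

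**Figure D4:**
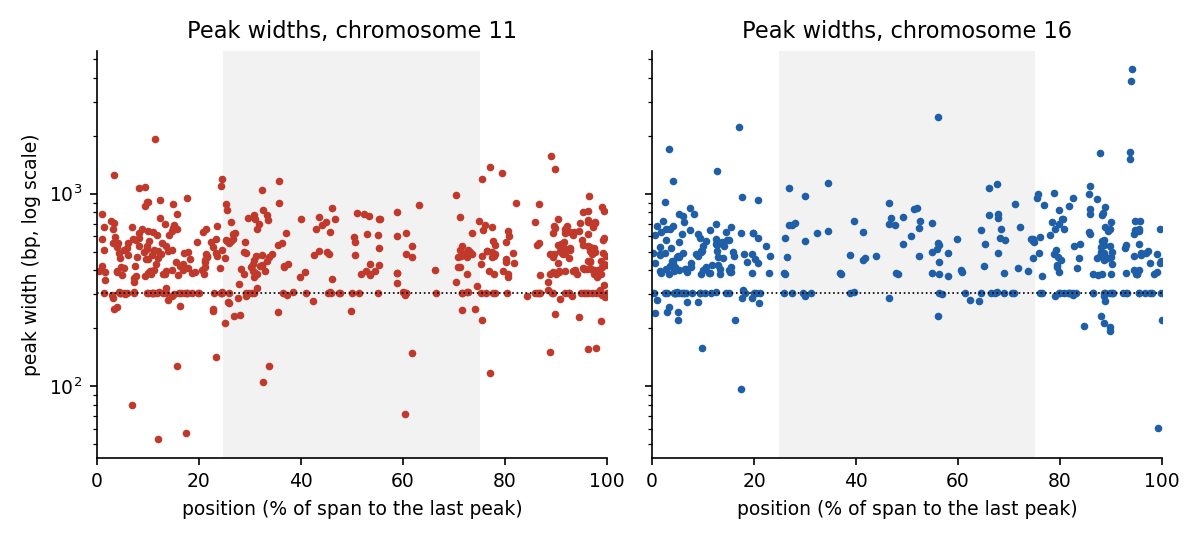
Width of each peak (y axis, bp, log scale) by its position along the span (x axis, percent) on chromosome 11 (left) and chromosome 16 (right), with the inner part shaded and a dotted line at the commonest width in the list. Chromosome 11 has no peak above 1929 bp and few inner peaks above 1 kb, and chromosome 16 has its widest peaks, of 4430 and 3830 bp, together at 94% of the span, with a row of peaks at the commonest width on both.

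A single exact width was shared by 1757 peaks of the list (15.4%), against 204 for the next commonest. It was found for 66 peaks on chromosome 11 (13.8%, interval 10.8 to 17.2), the second lowest share of 20, and for 62 on chromosome 16 (17.0%, interval 13.3 to 21.2), against 16.1% ± 1.42. Both chromosomes had a larger share of them in the outer parts, as 16 of the other 18 did. The shares were 14.9% against 11.5% in the inner part of chromosome 11, and 18.3% against 13.0% in that of chromosome 16. Narrower peaks made up 10.5% on chromosome 11 (50 peaks) and 8.77% on chromosome 16 (32 peaks), the lowest share of 20, against 12.5% ± 1.94. The narrowest peaks had 53 bp on chromosome 11 and 61 bp on chromosome 16, above the 2 to 52 bp of the other 18.

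**Figure D5:**
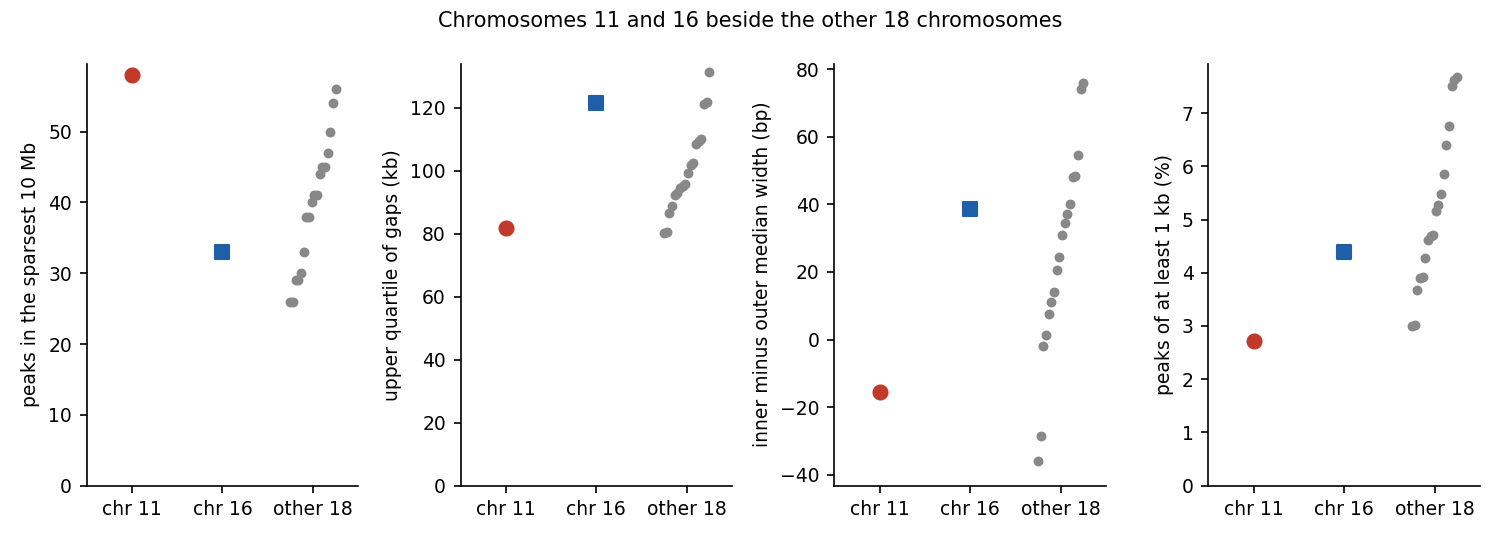
Values for chromosome 11, chromosome 16 and each of the other 18 chromosomes: peaks in the sparsest 10 Mb, upper quartile of gaps (kb), inner minus outer median width (bp) and share of peaks of at least 1 kb (percent). Chromosome 11 is the highest in the first panel at 58 peaks and the lowest in the last at 2.72%, and chromosome 16 is the third highest in the panel of gaps at 122 kb.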

How the data were processed

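ATAC-seq was done on soybean embryos in 2 biological replicates. The labels give no conditions to compare, so comparisons were made between chromosomes. The authors deposited 1 list with 3 columns, the sequence name, start (counted from 0) and end of each peak in bp, with no score, count or other value. Per the series' design text, it rests on paired-end data. The submitters' processing notes name Bowtie2 2.3.4.1, SAMtools, HOMER and bedtools. The genome build, the settings of peak calling and the joining of replicates are stated in no source used here, and a joined list can lack sites open in 1 replicate.

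The positions were summarised in Python 3.11.15 (scipy 1.17.1, numpy 2.4.6, pandas 2.3.3), and matplotlib 3.10.9 drew the plots. Peaks were assigned to parts, bins and windows by midpoint, and gaps by the middle of the gap. Windows moved in steps of 100 kb, and of tied windows the first is given. Ranks are over 20 chromosomes. Functions were checked on simulated lists. No reference sequence was used. The chromosomes and measures were chosen with earlier results of these data known. The regions named were the first and last peak, the 5 widest peaks, the longest peak-free stretches (at least 3), the sparsest and fullest windows, the chains of the 2 largest sizes, and the 3 closest pairs and 3 most isolated peaks of each chromosome. The group of wide peaks on chromosome 16 was named after its values were seen.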

Additional observations from a re-analysis of the deposited data

How the results depend on the processing

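Of 32 alternatives for 14 results, 25 left the value inside its 95% binomial interval, or within 1.5 times for counts in a window. The alternatives reuse the same peaks and the intervals take peaks as independent, so this count is a description and not a test. The 25 include the median gap of chromosome 16, which went from 37.7 to 46.6 kb without peaks under the commonest width. Ends of 5 and 10 Mb were chosen after seeing the data. With the outer parts set to 20% at each end, 40% of the span in all, they held 56.1% of peaks on chromosome 11 and 66.03% on chromosome 16. With 33% at each end, 66% in all, they held 83.3% and 85.2%. Longer parts hold more peaks on any chromosome, but ranks also moved. The outer share of chromosome 11 ranked 12 of 20 with 20% and 25% at each end and 7 with 33%. That of chromosome 16 ranked 3 with 20% and 25% and 4 with 33%. Without peaks under the commonest width the density of chromosome 11 was 12.4 peaks per Mb and its median width 474 bp. Its density was still the highest of 20, and that of chromosome 16, 8.80, was the third lowest. A sparsest window of 5 Mb, scaled to 10 Mb, gave 36 peaks on chromosome 11. No paired analysis was possible because no replicate is named, and for the same reason no replicate could be left out. Depth was unknown, and its effect was not tested.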

Other observations

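Longer chromosomes tended to have a lower density. Chromosome 11, chosen for its high density, went with this tendency, and chromosome 16 did not. Span is the divisor of density, which can itself lend the relation a negative sign. The number of peaks rose with span (Pearson's r 0.60 over the other 18 chromosomes and 0.70 over all 20). As a description over chromosomes that share this list and its depth, Pearson's r between span and density was -0.51 and Spearman's rho -0.51 over the other 18 chromosomes, and -0.44 and -0.40 over all 20 with chromosomes 11 and 16.

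Peaks with no neighbour within 100 kb had a median width of 408.5 bp on chromosome 11 and 464 bp on chromosome 16, against 444 ± 32.5 bp in the other 18 (SD, n = 18 chromosomes). Peaks with a neighbour within 5 kb, edge to edge, had medians of 468.5 bp on chromosome 11 and 453 bp on chromosome 16, against 475 ± 22.9 bp. These widths were not tested.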
